A study of Mus musculus with 12 samples.

Results

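The clustered replication-dependent histone genes are the genes that supply histones to newly made DNA. They were taken from the deposited mouse gene table by symbol, as all genes named H1f1 to H1f6, H2ac, H2bc, H3c or H4c with a number, and came to 67 of 22063 genes. By class these were 6 linker histone genes (H1), 18 H2A, 18 H2B, 12 H3 and 13 H4 genes. The family was chosen because nucleosome genes as a group were higher with Cre after osteogenic induction in an earlier look at these same data. The comparison of OI-AdV-CRE-EGFP with OI-AdV-EGFP is therefore given here as a description: the genes past the cut-offs are counted beside the background, and these counts are no independent evidence. Both comparisons over induction time share libraries with it and are given as counts, values and standard errors.

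The cells were mesenchymal cells of mandibular condyles, taken from newborn Plagl1 fl/fl mice. These mice carry loxP sites around part of the imprinted zinc finger gene Plagl1. The cells were grown in culture and infected with adenovirus at a multiplicity of infection of 100. The 4 groups of 3 libraries each were OI-AdV-CRE-EGFP (virus with Cre and EGFP, then 4 days of osteogenic induction), OI-AdV-EGFP (virus with EGFP alone, then 4 days of induction), AdV-CRE-EGFP (virus with Cre and EGFP, day 0) and AdV-EGFP (virus with EGFP alone, day 0). Induction medium held β-glycerophosphate at 5 mM, ascorbic acid at 50 µg/ml and dexamethasone at 100 nM. Since no library was kept 4 days without induction medium, induction and time in culture cannot be told apart. Whether the 3 libraries of a group stem from different cultures or mice is not said in the labels. P-values here therefore measure the spread among libraries, and that spread may be technical. In bulk RNA, fewer cells that make histone mRNA and less of it per cell cannot be told apart.

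The nucleosome core is an octamer of H2A, H2B, H3 and H4, and H1 binds the linker DNA between nucleosomes. The clustered genes encode the histones needed when DNA is replicated, and in most cells their transcription and the stability of their mRNA are tied to S phase. Their mRNAs are the known exception to polyadenylation in animal cells: they end just after a conserved stem-loop that is bound by SLBP, the stem-loop binding protein, while NPAT drives their transcription at histone locus bodies. Some of these genes can also give longer, polyadenylated transcripts, mainly in differentiated cells. Histones that replace others outside S phase, such as H3.3 or H1.0, come from polyadenylated mRNAs of genes outside the clusters.

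Total counts per library ran from 15316989 to 18052040. Plagl1 RNA, the target of Cre, was not lower in the libraries labelled as given Cre. It had a log2 fold change of 0.55 (SE 0.04, edgeR adjusted p = 1.8e-10) in AdV-CRE-EGFP relative to AdV-EGFP and of −0.03 (SE 0.04) in OI-AdV-CRE-EGFP relative to OI-AdV-EGFP. The deleted part of the gene is not resolved by a count over the whole gene, so the groups are named by their labels. Levels are given as CPM, the counts of a gene in every 1000000 counts of a library, with library sizes scaled by the trimmed mean of M-values. All 12 condylar mesenchyme markers were detected. They summed to 25511 to 25669 CPM in OI-AdV-CRE-EGFP, 29588 to 32019 CPM in OI-AdV-EGFP, 16586 to 17454 CPM in AdV-CRE-EGFP and 18947 to 19603 CPM in AdV-EGFP. By edgeR adjusted p under 0.05 alone, 1 was higher and 7 lower in OI-AdV-CRE-EGFP relative to OI-AdV-EGFP, where 19.8% and 20.6% of all genes were. On day 0, 5 were higher and 5 lower with Cre, where 15.8% and 13.5% of all genes were. Of markers of other cells, the 8 macrophage markers summed to 536 to 569 CPM in OI-AdV-CRE-EGFP, 499 to 530 CPM in OI-AdV-EGFP, 289 to 312 CPM in AdV-CRE-EGFP and 253 to 262 CPM in AdV-EGFP. The endothelial markers summed to 34.2 to 37.9 CPM in OI-AdV-CRE-EGFP, 17.4 to 20.6 CPM in OI-AdV-EGFP, 20.3 to 26.5 CPM in AdV-CRE-EGFP and 4.88 to 6.65 CPM in AdV-EGFP. Kdr alone averaged 30.7 CPM in OI-AdV-CRE-EGFP, 11.8 CPM in OI-AdV-EGFP, 14.5 CPM in AdV-CRE-EGFP and 2.41 CPM in AdV-EGFP. The endothelial markers did not all move together. Of 5 tested, 2 were higher and 1 lower in OI-AdV-CRE-EGFP relative to OI-AdV-EGFP, where 2.46% and 2.61% of all genes were. On day 0, 3 were higher and 0 lower with Cre, where 2.6% and 0.556% of all genes were. Both counts took an edgeR adjusted p under 0.05 and a log2 fold change of 1 or more in either direction. The 7 skeletal muscle markers summed to 32.4 to 38.8 CPM in OI-AdV-CRE-EGFP, 15.3 to 19.6 CPM in OI-AdV-EGFP, 119 to 128 CPM in AdV-CRE-EGFP and 79.4 to 83.4 CPM in AdV-EGFP. The 6 epithelial markers summed to 6.94 to 7.51 CPM in OI-AdV-CRE-EGFP, 2.01 to 2.56 CPM in OI-AdV-EGFP, 8.18 to 8.61 CPM in AdV-CRE-EGFP and 1.16 to 3.40 CPM in AdV-EGFP. The 5 erythroid markers summed to at most 0.362 CPM in any library, with all 5 at 0 in AdV-EGFP. The endothelial marker Cldn5 was at 0 in every group but OI-AdV-CRE-EGFP. Several of these sums move with Cre or with induction, as the histone sums below do, and their part in the histone results was not tested.

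The members lie in 4 places of the GRCm39 genome. On chromosome 13 there were 54, in a block of 23 between 21899933 and 22227846 and a block of 31 between 23715220 and 24118834. On chromosome 3 there were 10, within 96127181 to 96177448. Chromosome 11 held H2ac25 and H2bc27, and chromosome 6 held H4c16. In GENCODE M39, 62 members have a single exon. The stem-loop core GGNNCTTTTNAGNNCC, searched on the gene's own strand in the 200 bases after the stop codon, was found in 60 of 67 members, between 22 and 59 bases after the stop codon. It was found in 6 of 6 H1, 17 of 18 H2A, 14 of 18 H2B, 11 of 12 H3 and 12 of 13 H4 genes. The stem-loops of the members with the highest levels and of H4 members discussed below are shown because they are the element that sets where the usual histone mRNA ends. They are printed 5′ to 3′ on the gene's strand, as DNA, with the 16-base core in capitals:
H1f2 (chr13:23923490-23923515, + strand): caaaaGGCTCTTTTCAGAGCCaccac
H2bc4 (chr13:23868625-23868650, + strand): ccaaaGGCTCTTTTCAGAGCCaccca
H2ac18 (chr3:96153343-96153368, + strand): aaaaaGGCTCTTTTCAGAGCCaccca
H3c14 (chr3:96154638-96154663, + strand): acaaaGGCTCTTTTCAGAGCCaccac
H4c8 (chr13:23715623-23715648, + strand): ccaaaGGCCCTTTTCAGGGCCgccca
H4c17 (chr13:21996294-21996319, + strand): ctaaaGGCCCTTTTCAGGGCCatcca
H4c3 (chr13:23882067-23882092, − strand): caaaaGGCCCTTTTCAGGGCCaccca
H4c9 (chr13:22225131-22225156, − strand): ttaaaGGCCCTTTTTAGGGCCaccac
The core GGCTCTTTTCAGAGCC was held by 38 members, all of them H1, H2A, H2B or H3 genes. The core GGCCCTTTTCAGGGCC was held by 8 members, all of them H4 genes, and 2 more H4 genes, H4c9 and H4c14, had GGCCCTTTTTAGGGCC. The genes in which these letters were not found were H2ac22, H2bc21, H2bc22, H2bc23, H2bc24, H3c8 and H4c1. The search used only the stop codon of the canonical GENCODE M39 transcript, which has 2 exons in H2bc22, H2bc23 and H2bc24. A stem-loop after another stop codon of these genes was not looked for, so they are not shown to lack one.

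Copies of one class are so alike that reads can fit more than one. Of the 67 members, 60 shared at least 1 stretch of 50 exon bases with another member, and 30 shared at least 50% of all such stretches. Coding sequences were identical between H2ac18 and H2ac19, between H3c14 and H3c15, between H4c17 and H4c18, between H2bc23 and H2bc24, and between H2ac23 and H2ac24, which share 403 of 431 and 433 stretches. All 479 stretches of H2ac19 also occur in H2ac18, and all 1205 stretches of H2bc23 occur in H2bc24, so the values of these genes depend on how the counting shared reads between copies, which was not given in the sources used here. Such pairs are also given as sums. In addition 44 members overlap another annotated gene and 7 overlap another member, among them H2bc4 with H2ac6, and H2bc6 with H1f4 and H4c4, and without a stated strand setting for the counting, reads in those overlaps cannot be told apart.

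Together the histone genes took a small share of each library. They made up 0.0529% to 0.0603% of counts in OI-AdV-CRE-EGFP, 0.0468% to 0.0493% in OI-AdV-EGFP, 0.0374% to 0.0422% in AdV-CRE-EGFP and 0.0341% to 0.0356% in AdV-EGFP. Most of this came from few genes. The linker histone gene H1f2 alone held 34.5% of all member counts, H1f2 and the H2B gene H2bc4 together 65.4%, and the first 10 members 88.9%. At the other end, 4 members were at 0 in all 12 libraries and 28 did not reach a count of 10 in any. After the filter on low counts 36 members were tested, among 13670 genes, and the 31 that were left out held 0.666% of member counts.

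Levels can be compared between genes per length, as the authors' FPKM, which are fragments scaled by transcript length and by the number mapped in each library. For 35 of 39 members with a count of at least 10 in any library, the transcript length that the FPKM implies is within 10% of the canonical GENCODE M39 transcript. The other 4 are H2bc4, H2bc6, H2bc23 and H2bc24. In the authors' FPKM, H2bc4 had a mean of 118.7 over the 12 libraries and H1f2 of 99.0. Their order depends on the length used, since the FPKM of H2bc4 imply 1156 bases and its canonical transcript has 1707, at which it would stand at 80.4 FPKM, while those of H1f2 match its canonical length. H2bc4 averaged 148 ± 11.5 FPKM in OI-AdV-CRE-EGFP, 130 ± 6.20 FPKM in OI-AdV-EGFP, 102 ± 3.86 FPKM in AdV-CRE-EGFP and 95.2 ± 2.60 FPKM in AdV-EGFP (SD, n = 3 each). Of the H2A genes, H2ac18 had 37.1 and H2ac19 15.5 FPKM, values that rest on how reads were shared between these copies. Of the H4 genes, H4c8 had 14.5 and H4c9 14.1 FPKM, and of the H3 genes H3c14 had 7.16 and H3c15 3.72 FPKM. The second H2B gene, H2bc8, had 3.80 FPKM and the second H1 gene, H1f4, 2.15 FPKM. In all, 7 members averaged at least 10 FPKM, and 9 of the 36 tested members averaged under 1 FPKM.

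Where the annotated gene ends was set beside these levels, because a transcript that stops at the stem-loop and one that runs past it differ in their 3′ end. Among the 60 members with a stem-loop, 24 had an annotated end at least 100 bases past it, and 36 did not. The boundary was chosen after the values were seen. The 24 held 86.4% of member counts, and 20 of them were tested. The 36 held 11.1%, and 11 were tested. Mean levels were 0.0278 to 118.7 FPKM, with a median of 1.36 FPKM, in the 24, and 0 to 37.1 FPKM, with a median of 0.271 FPKM, in the 36. Of the 10 members with the highest counts, 7 belonged to the 24: H1f2, with an end 840 bases past the stem-loop, H2bc4 with 9518, H2ac25 with 1643, H3c14 with 1167, H1f3 with 4884, H4c9 with 330 and H2bc6 with 2919 bases. The other 3 were H2ac18, H2ac19 and H4c8, which are annotated to end 35, 35 and 46 bases past it. All these are distances on the genome to the furthest annotated end of any transcript, introns included, and not lengths of RNA. The canonical transcript of H2bc4, for example, has 2 exons and 1707 bases in all. A count per gene does not say where its reads lie, so how much of a level comes from transcripts past the stem-loop was not measured.

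**Figure D1:**
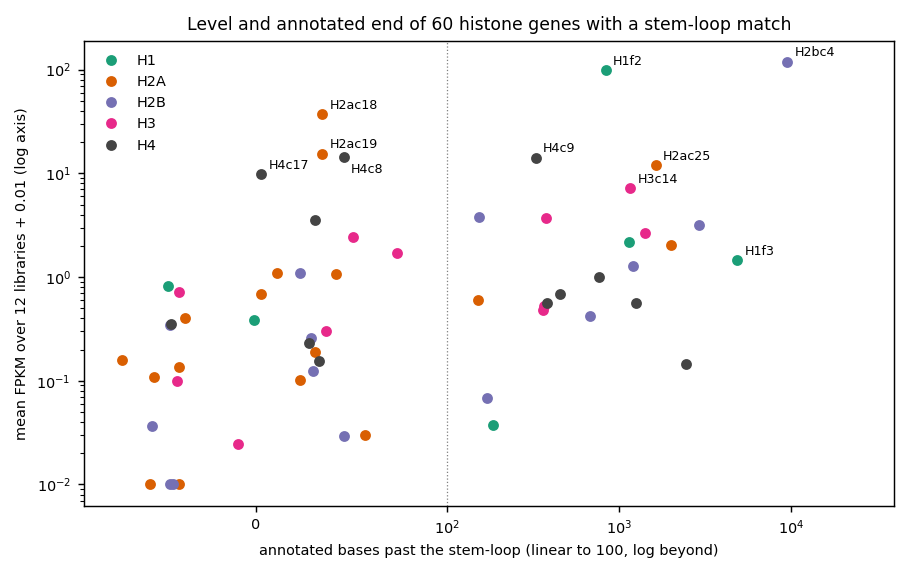
Each point is 1 of the 60 histone genes with a stem-loop match, by class. The x axis is the number of genome bases, introns included, from the stem-loop to the annotated gene end (linear to 100, log beyond). The y axis is the mean FPKM over 12 libraries plus 0.01 on a log axis, so that genes at 0 sit at the bottom. H2bc4 and H1f2, at 118.7 and 99.0 FPKM, lie to the right of the dotted line at 100 bases, while H2ac18 at 37.1 FPKM lies to its left.

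After 4 days of induction, the libraries labelled OI-AdV-CRE-EGFP had higher levels of many histone genes than OI-AdV-EGFP, and of the genes past both cut-offs 6 were H4 genes. This comparison chose the family, so what follows is a description. With both cut-offs (an edgeR adjusted p under 0.05, and a log2 fold change of 1 or more in either direction), 11 of 36 members were higher and 0 lower, where 2.46% of all 13670 genes were higher and 2.61% lower. With DESeq2, which kept 63 members, 8 were higher and 1 lower, and at an unadjusted p under 0.05 in edgeR 19 were higher and 0 lower. The member that DESeq2 called lower was H2ac24, an H2A gene that the filter left out of the edgeR fit and that was chosen for naming after its values were seen. It had 0 counts in all 3 OI-AdV-CRE-EGFP libraries, against 5.24, 6.38 and 3.52 counts in OI-AdV-EGFP, but its copy H2ac23 ran the other way, with 1.86, 3.80 and 3.36 counts in OI-AdV-CRE-EGFP, against 0 in all 3 OI-AdV-EGFP libraries. Summed, the copies had 1.86, 3.80 and 3.36 counts in OI-AdV-CRE-EGFP, against 5.24, 6.38 and 3.52 counts in OI-AdV-EGFP, and the groups overlapped, so the difference in H2ac24 alone depends on how reads were split between the copies. By adjusted p alone 17 of 36 members were higher and 0 lower, where 19.8% and 20.6% of all genes were. In 21 members every OI-AdV-CRE-EGFP library was above every OI-AdV-EGFP library and in 0 below, where 24.3% and 26.1% of all genes were. Of the 36, 33 had a positive log2 fold change and 3 a negative one, where 48.5% and 51.5% of all genes did. The median log2 fold change was 0.58 for the members and −0.01 for all genes. Of the 11, 6 were H4 genes, of 9 tested: H4c1, H4c3, H4c18, H4c8, H4c17 and H4c4. The others were the H2A genes H2ac4 and H2ac8, the H3 genes H3c2 and H3c7, and the H2B gene H2bc11. None of the 4 tested H1 genes was among them. All 11 lie on chromosome 13, where 28 members were tested, and the 6 tested members on chromosome 3 had log2 fold changes of −0.04 to 0.30.

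H4c8 had the highest level of these genes. It stood at 15.6, 14.3 and 20.1 CPM in the 3 OI-AdV-CRE-EGFP libraries, against 6.58, 6.68 and 6.42 CPM in OI-AdV-EGFP, a log2 fold change of 1.35 (SE 0.13). The groups did not overlap, and the third OI-AdV-CRE-EGFP library was the highest, as it was for most H4 genes. H4c1 stood at 2.84, 2.10 and 3.34 CPM in OI-AdV-CRE-EGFP, against 0.65, 0.99 and 0.82 CPM in OI-AdV-EGFP, a log2 fold change of 1.75 (SE 0.32). The near-identical copies H4c17 and H4c18, with log2 fold changes of 1.26 (SE 0.20) and 1.43 (SE 0.31), summed to 9.12, 11.6 and 15.1 CPM in OI-AdV-CRE-EGFP, against 3.64, 5.58 and 5.17 CPM in OI-AdV-EGFP. The sums did not overlap between the groups either, and their ratio of means was 2.49. H4c3 had a log2 fold change of 1.54 (SE 0.45) and H4c4 of 1.04 (SE 0.36), but H4c4 overlaps H2bc6. H4c9, which held the most counts of any H4 gene, differed less: it stood at 13.4, 12.5 and 13.6 CPM in OI-AdV-CRE-EGFP, against 10.1, 9.36 and 10.2 CPM in OI-AdV-EGFP, with a log2 fold change of 0.42 (SE 0.13).

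Many of the differences past both cut-offs rested on low counts. H2ac4, H4c3, H3c7 and H2ac8 reached 10 counts in all 3 libraries of a group only in OI-AdV-CRE-EGFP. The filter on low counts thus kept them through the group in which they were high, and genes equally low there could be left out. Without the filter, 11 of 63 members were higher and 1 lower, beside 403 and 371 of 18096 genes. H4c3 had 22.2, 20.03 and 24.1 counts in OI-AdV-CRE-EGFP, against 7.04, 3 and 14.4 counts in OI-AdV-EGFP. H2ac4, with the largest value of all members, stood at 1.27, 0.99 and 1.19 CPM in OI-AdV-CRE-EGFP, against 0.18, 0.46 and 0.11 CPM in OI-AdV-EGFP, which are 20.9, 16.5 and 20.4 counts against 3.48, 8.15 and 2.16 counts. Its log2 fold change was 2.18 (SE 0.51). H2bc11 had a log2 fold change of 1.64 (SE 0.58), H2ac8 of 1.60 (SE 0.51), H3c2 of 1.52 (SE 0.36) and H3c7 of 1.24 (SE 0.43). H3c2 was counted about as often as H4c1, with 40.2, 35.9 and 62.0 counts in OI-AdV-CRE-EGFP, against 6.69, 14.9 and 29.0 counts in OI-AdV-EGFP. Without the third OI-AdV-EGFP library, 7 members in place of 11 were past both cut-offs in the higher direction, and with limma on log2(FPKM + 1) 6 were.

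The most abundant members differed less. H1f2 stood at 154, 159 and 162 CPM in OI-AdV-CRE-EGFP, against 157, 160.2 and 159 CPM in OI-AdV-EGFP, a log2 fold change of −0.005 (SE 0.05). H2bc4 stood at 163, 166 and 186 CPM in OI-AdV-CRE-EGFP, against 142, 147 and 155 CPM in OI-AdV-EGFP, a log2 fold change of 0.22 (SE 0.05), and the groups did not overlap. H3c14 had a log2 fold change of −0.04 (SE 0.11) and H2bc21 of −0.01 (SE 0.22), and with H1f2 these were the only 3 tested members below 0.

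**Figure D2:**
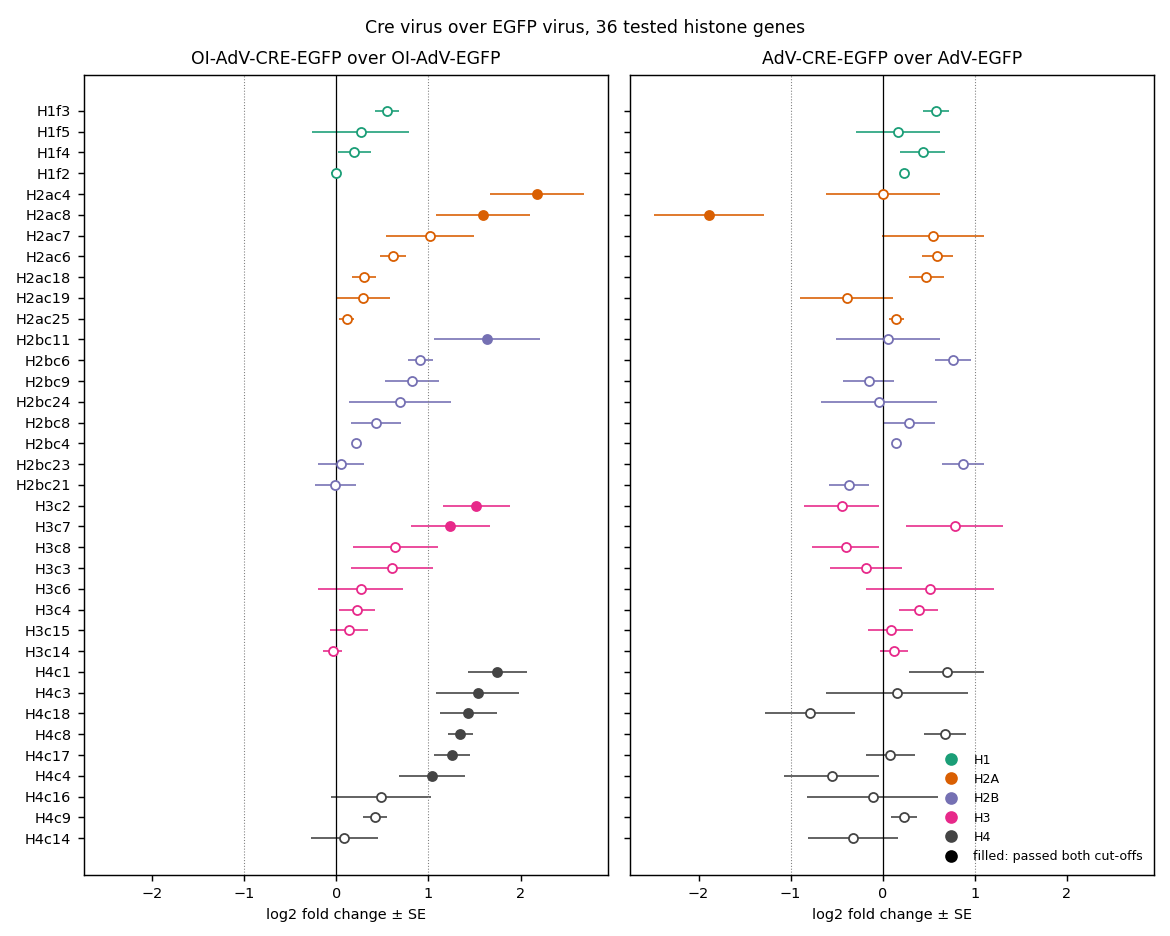
Log2 fold change with its standard error of each of the 36 tested members, grouped by class, in OI-AdV-CRE-EGFP relative to OI-AdV-EGFP (left) and AdV-CRE-EGFP relative to AdV-EGFP (right). Filled points passed both cut-offs, and dotted lines mark a log2 fold change of 1 in either direction. On the left 11 points are filled, 6 of them H4 genes, and on the right only H2ac8 is, below 0.

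Summed over all copies of a class, levels do not depend on how reads were shared within it. The 13 H4 genes together stood at 46.4 to 59.7 CPM in OI-AdV-CRE-EGFP, against 24.8 to 26.5 CPM in OI-AdV-EGFP, a ratio of means of 1.97. The 18 H2A genes stood at 93.2 ± 9.15 CPM in OI-AdV-CRE-EGFP and 76.7 ± 3.44 CPM in OI-AdV-EGFP (SD, n = 3 each), a ratio of 1.22, and the H2B genes at 203 ± 13.8 CPM in OI-AdV-CRE-EGFP and 168 ± 4.08 CPM in OI-AdV-EGFP, a ratio of 1.21. For H3 the values were 35.6 ± 3.18 CPM in OI-AdV-CRE-EGFP and 31.6 ± 1.49 CPM in OI-AdV-EGFP, a ratio of 1.12, and here the groups overlapped, since the lowest OI-AdV-CRE-EGFP library stood at 33.2 CPM and the highest OI-AdV-EGFP library at 33.3 CPM. For H1 they were 179 ± 2.93 CPM in OI-AdV-CRE-EGFP and 175 ± 4.32 CPM in OI-AdV-EGFP, a ratio of 1.03. All 67 members together stood at 562 ± 36.4 CPM in OI-AdV-CRE-EGFP and 477 ± 12.5 CPM in OI-AdV-EGFP, a ratio of 1.18. The H1 and H2B sums are mostly 1 gene each, since H1f2 held 90.7% of H1 counts and H2bc4 86.1% of H2B counts. Among H4 genes the largest share of counts was 37.1%, held by H4c9.

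**Figure D3:**
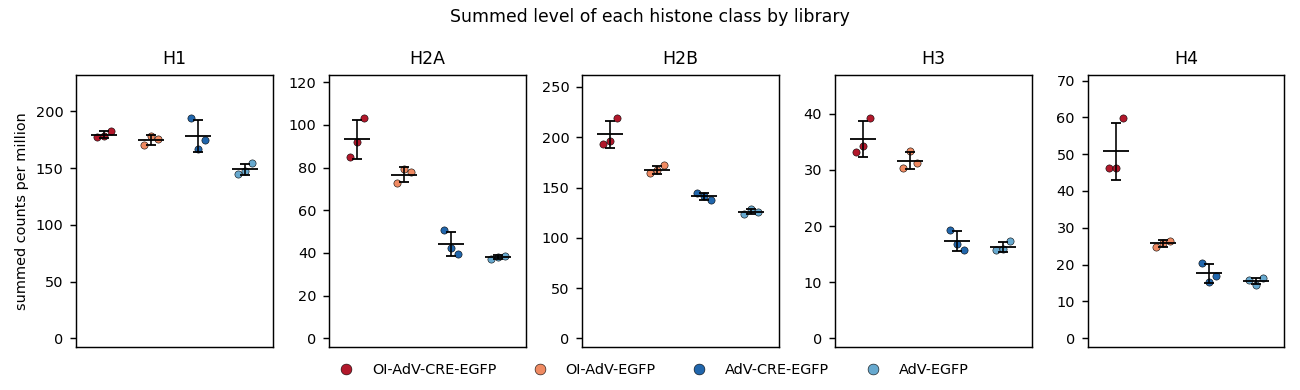
Summed CPM of the members of each class, with 1 point per library, the mean as a bar and the SD as whiskers (n = 3). In H4 the 3 OI-AdV-CRE-EGFP libraries sit between 46.4 and 59.7 and the 3 OI-AdV-EGFP libraries between 24.8 and 26.5, while in H1 these 2 groups overlap.

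On day 0, before induction, the same question can be asked with libraries that did not choose the family. Few histone genes differed between AdV-CRE-EGFP and AdV-EGFP. By adjusted p alone the share of higher members was near that of all genes, and the share of lower members was smaller than that of all genes. With both cut-offs 0 members were higher and 1 was lower in edgeR, where 2.6% of all genes were higher and 0.556% lower, and 0 of either kind in DESeq2. At an unadjusted p under 0.05, 8 members were higher and 1 lower. By adjusted p alone 7 of 36 members (19.4%) were higher and 1 (2.78%) lower, against 15.8% and 13.5% of all genes. Groups did not overlap for 7 higher members and 1 lower, where this held for 21.2% and 19.5% of all genes. The median log2 fold change was 0.15 for the members and −0.01 for all genes, and 24 of 36 members had a positive and 12 a negative one, where 49% and 50.9% of all genes did.

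The 7 genes that rose by adjusted p alone did so by less than a log2 fold change of 1. H1f2, the most counted member, stood at 178, 151 and 160.0 CPM in AdV-CRE-EGFP, against 134, 137 and 144 CPM in AdV-EGFP. Its groups did not overlap, and its log2 fold change was 0.24 (SE 0.05, edgeR adjusted p = 6.8e-04). H1f3, another linker histone gene, had 0.58 (SE 0.14, edgeR adjusted p = 0.0027), and the H2A gene H2ac6 had 0.59 (SE 0.17, edgeR adjusted p = 0.0087). The H2B gene H2bc6 stood at 4.02, 4.88 and 4.69 CPM in AdV-CRE-EGFP, against 1.74, 2.94 and 3.27 CPM in AdV-EGFP, a log2 fold change of 0.76 (SE 0.19, edgeR adjusted p = 0.0037). These 4 kept an adjusted p under 0.05 in all 19 alternatives.

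The other 3 did not. H4c8 stood at 2.74, 2.24 and 2.50 CPM in AdV-CRE-EGFP, against 1.61, 1.79 and 1.30 CPM in AdV-EGFP, a log2 fold change of 0.67 (SE 0.23, edgeR adjusted p = 0.027), and passed in 14 of 19 alternatives (adjusted p 0.0047 to 0.13). H2bc4 had 0.15 (SE 0.05, edgeR adjusted p = 0.032) and passed in 9 of 19 (adjusted p 0.017 to 0.20). H2bc23 had 0.87 (SE 0.23, edgeR adjusted p = 0.0053) and passed in 16 of 19 (adjusted p 2.0e-04 to 0.085), but summed with its copy H2bc24 it stood at 6.45, 6.53 and 8.48 CPM in AdV-CRE-EGFP, against 5.75, 3.51 and 4.51 CPM in AdV-EGFP, a ratio of means of 1.56. The genes H1f3, H2ac6, H2bc6 and H4c4 were chosen for naming after their values were seen.

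The 1 member called lower was H2ac8, an H2A gene at the edge of detection. It had 3.39, 2.19 and 2.50 counts in AdV-CRE-EGFP, against 9.81, 6.69 and 9.61 counts in AdV-EGFP, and 12, 10.2 and 12.6 counts in OI-AdV-CRE-EGFP, against 6.46, 4.31 and 2.09 counts in OI-AdV-EGFP. Its groups did not overlap in either pair, and the order was turned between them. The log2 fold change on day 0 was −1.89 (SE 0.60, edgeR adjusted p = 0.018). It passed the adjusted p in 12 of 18 alternatives (adjusted p 0.0022 to 0.058), and was not past it with DESeq2, without the filter, or without the second or the third AdV-CRE-EGFP or the first or the third AdV-EGFP library.

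**Figure D4:**
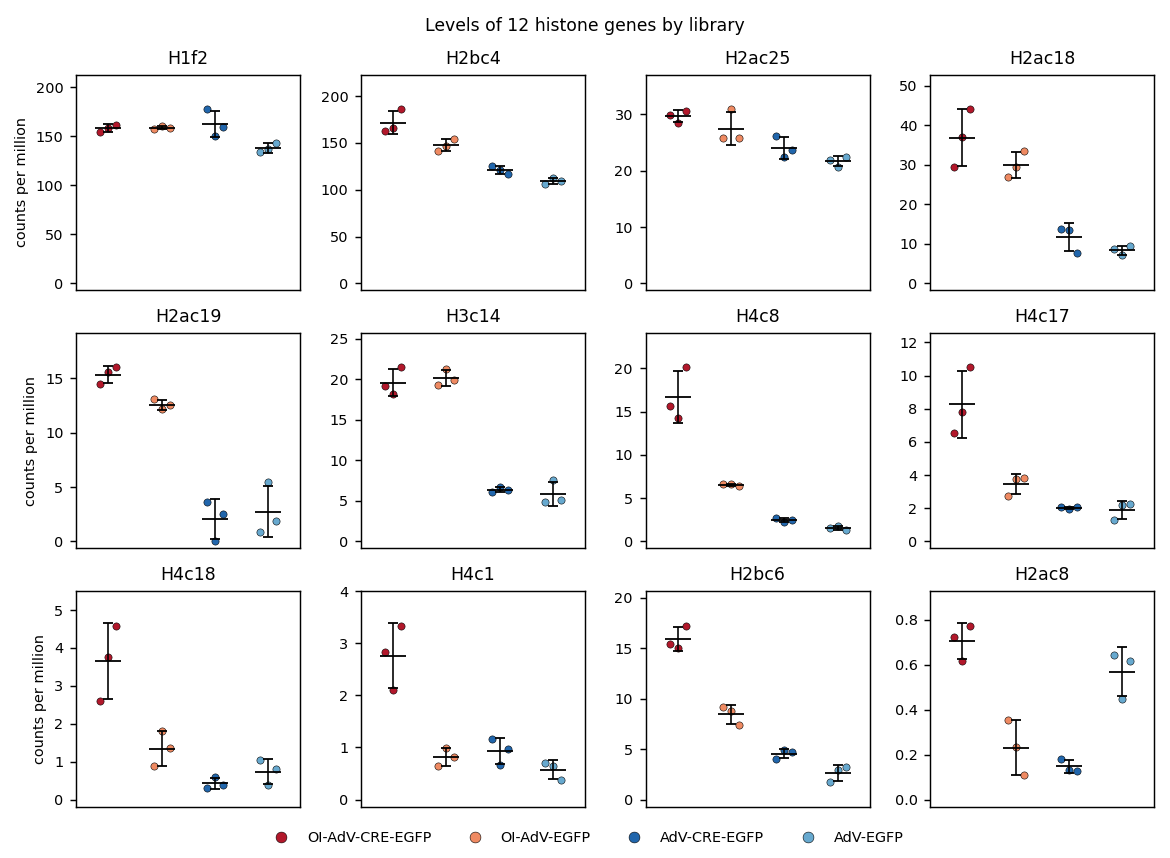
CPM of 12 members in each library, with the mean as a bar and the SD as whiskers (n = 3 per group). H4c8, H4c17, H4c18 and H4c1 are highest in OI-AdV-CRE-EGFP, H2ac18, H2ac19 and H3c14 are high in both groups after induction, H1f2 lies between 134 and 178 in every library, and H2ac8 stays under 1.

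Over the 4 days of induction histone gene counts were higher in both virus groups, for a subset of genes. In OI-AdV-CRE-EGFP over AdV-CRE-EGFP, 16 of 36 members were past both cut-offs in the higher direction and 0 in the lower, where 12% of all genes were higher and 8.62% lower. DESeq2 gave 15 higher and 1 lower, again H2ac24, and at an unadjusted p under 0.05 in edgeR 23 were higher and 1 lower. By adjusted p alone the counts were 23 higher and 1 lower, where 35.9% and 35.3% of all genes were, and groups did not overlap for the same numbers of members, where this held for 37% and 36.5% of all genes. In OI-AdV-EGFP over AdV-EGFP, 7 members (19.4%) were higher and 3 (8.33%) lower, where 15.1% of all genes were higher and 10.8% lower. By both cut-offs the share without Cre is therefore near the background. By adjusted p alone 16 (44.4%) were higher and 5 (13.9%) lower there, where 39.7% and 36.5% of all genes were. A smaller share of members than of all genes was thus lower. Groups did not overlap for 16 higher and 5 lower, where this held for 40.1% and 37% of all genes. The median log2 fold change of the members was 0.92 with Cre and 0.44 without, against 0.02 and 0.05 for all genes.

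The H2A pair H2ac18 and H2ac19 on chromosome 3 rose in both virus groups. Together they stood at 43.9, 52.7 and 59.99 CPM in OI-AdV-CRE-EGFP, against 17.5, 13.6 and 10.1 CPM in AdV-CRE-EGFP, and at 39.9, 41.6 and 46.0 CPM in OI-AdV-EGFP, against 9.62, 12.5 and 11.3 CPM in AdV-EGFP. The ratio of means was 3.80 with Cre and 3.81 without, and neither pair of groups overlapped. Singly, H2ac18 had log2 fold changes of 1.66 (SE 0.15) with Cre and 1.83 (SE 0.16) without, and H2ac19 of 2.87 (SE 0.39) and 2.19 (SE 0.38). The H3 pair beside them, H3c14 and H3c15, summed to 23.1, 23.9 and 26.7 CPM in OI-AdV-CRE-EGFP, against 10.0, 9.16 and 8.73 CPM in AdV-CRE-EGFP, and to 23.8, 26.0 and 24.3 CPM in OI-AdV-EGFP, against 7.81, 9.45 and 8.58 CPM in AdV-EGFP. The ratio of means was 2.64 with Cre and 2.86 without. Of the 6 tested members on chromosome 3, 4 were past both cut-offs in the higher direction with Cre and 3 without. Of all genes 12% and 15.1% were. The copies H2ac18 and H2ac19, which can share reads, are counted singly among them.

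Of 9 tested H4 genes, 7 were past both cut-offs in the higher direction over induction with Cre and 1 was without. Of all genes 12% and 15.1% were. By adjusted p alone 8 were higher with Cre and 4 without, where 35.9% and 39.7% of all genes were. Log2 fold changes of the 9 were 0.44 to 3.08 with Cre (median 2.02) and 0.25 to 2.06 without (median 0.84). The single gene past both cut-offs without Cre was H4c8. It stood at 6.58, 6.68 and 6.42 CPM in OI-AdV-EGFP, against 1.61, 1.79 and 1.30 CPM in AdV-EGFP, a log2 fold change of 2.06 (SE 0.19). It had 2.74 (SE 0.16) in OI-AdV-CRE-EGFP over AdV-CRE-EGFP. The sum of H4c17 and H4c18 stood at 11.9 ± 3.0 CPM in OI-AdV-CRE-EGFP and 2.46 ± 0.101 CPM in AdV-CRE-EGFP, a ratio of 4.85, and at 4.80 ± 1.02 CPM in OI-AdV-EGFP and 2.66 ± 0.392 CPM in AdV-EGFP, a ratio of 1.81 (SD, n = 3 each). H4c18 alone had the largest value of all members with Cre, 3.08 (SE 0.39), against 0.86 (SE 0.39) without. All H4 genes together had a ratio of means of 2.89 with Cre and 1.65 without. The interaction term, which compares the change over induction between the virus groups and contains the comparison that chose the family, was past an adjusted p under 0.05 for H4c17 and H4c18 among the 9 H4 genes. Over all 36 members it was for 4 in the higher direction (11.1%) and 1 in the lower (2.78%), where 10.7% and 12.1% of all genes were.

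Other classes were mixed. The H2A sum had a ratio of means of 2.11 with Cre and 2.02 without, the H3 sum 2.05 and 1.94, the H2B sum 1.43 and 1.33, and the H1 sum 1.01 and 1.17. H1f2 had a log2 fold change of −0.04 (SE 0.05) with Cre and of 0.20 (SE 0.05) without. The linker histone gene H1f4 had 1.12 (SE 0.20) with Cre and 1.36 (SE 0.22) without, while H1f5 had −0.63 (SE 0.48) and −0.72 (SE 0.50), on at most 1.05 CPM in any library. Past both cut-offs in the lower direction without Cre were H3c8 with −1.66 (SE 0.41), H2ac8 with −1.29 (SE 0.53) and H3c3 with −1.11 (SE 0.43), all at 2.22 CPM or less. With Cre, H3c8 had −0.62 (SE 0.40), and the lowest value was that of H2bc23, −0.995 (SE 0.23), which falls just short of the fold cut-off. Its copy H2bc24 went the other way, with 0.86 (SE 0.58), and the sum of both had a ratio of means of 0.762. The size of the fall in H2bc23 alone therefore depends on how reads were split between the copies.

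**Figure D5:**
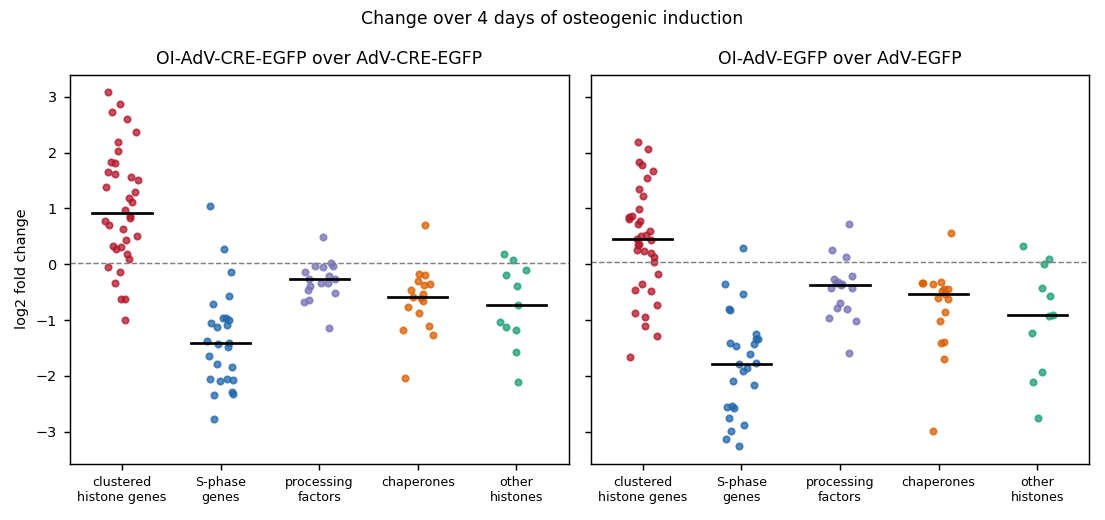
Log2 fold change over induction of the 36 tested clustered histone genes beside 4 lists of related genes, with 1 point per gene, the list's median as a bar and the median of all genes as a dashed line, in OI-AdV-CRE-EGFP over AdV-CRE-EGFP (left) and OI-AdV-EGFP over AdV-EGFP (right). The histone genes have medians of 0.92 (left) and 0.44 (right), and the S-phase genes of −1.42 and −1.78.

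S-phase genes, which act at the same time in the cell cycle as the clustered histone genes, fell over induction. Of 26 S-phase genes, all tested, 19 fell past both cut-offs with Cre and 21 without, where 8.62% and 10.8% of all genes fell, and 1 rose with Cre. Their summed level was 1186 to 1216 CPM in OI-AdV-CRE-EGFP, against 1881 to 1939 CPM in AdV-CRE-EGFP, and 1011 to 1066 CPM in OI-AdV-EGFP, against 2377 to 2407 CPM in AdV-EGFP. Mki67, a marker of cycling cells, had log2 fold changes of −2.77 with Cre and −3.12 without, and Top2a, a topoisomerase of dividing cells, of −2.05 and −2.55. Mcm5, a subunit of the replicative helicase, had −2.10 and −2.76, and Ccna2, the S-phase cyclin A2, −2.35 and −2.99. The gene that rose was Rrm2, which encodes a subunit of ribonucleotide reductase, with 1.05 with Cre and −0.35 without.

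Factors that make, trim and carry histone mRNA and histones were also mostly lower by adjusted p alone. Slbp, which encodes the protein that binds the stem-loop, had a log2 fold change of −0.67 with Cre and −0.96 without over induction, and Npat, the transcriptional coactivator of histone genes, of −0.21 and −0.38. Of 17 such genes 1 fell past both cut-offs in each virus group, where 8.62% of all genes fell with Cre and 10.8% without. It was the histone chaperone Nasp, with −1.14 and −1.59. By adjusted p alone 11 were lower with Cre and 13 without, where 35.3% and 36.5% of all genes were. Of 17 chaperone genes 4 fell past both cut-offs with Cre and 5 without, against the same 8.62% and 10.8% of all genes. They were led by Asf1b, an H3–H4 chaperone, with −2.04 and −2.99. Of 11 tested histone genes outside the clusters, 5 fell past both cut-offs with Cre and 4 without, again against 8.62% and 10.8% of all genes. Among them were Cenpa, the centromeric H3, with −2.11 and −2.75, and H2ax, an H2A variant marked at DNA breaks, with −1.17 and −2.12. H1f0, the linker histone of differentiated cells, had −0.19 with Cre and 0.10 without. By the interaction term, 17 of 26 S-phase genes had a higher change over induction with Cre than without, where 10.7% of all genes did.

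The same lists were also compared between the virus groups. In OI-AdV-CRE-EGFP relative to OI-AdV-EGFP, 1 of 26 S-phase genes was past both cut-offs in the higher direction, where 2.46% of all genes were. It was Rrm2, with 340.1 CPM in OI-AdV-CRE-EGFP and 153 CPM in OI-AdV-EGFP on average. By adjusted p alone 7 were higher and 1 lower, where 19.8% and 20.6% of all genes were, and the median log2 fold change of the 26 was 0.01. On day 0, in AdV-CRE-EGFP relative to AdV-EGFP, 21 of 26 were lower by adjusted p alone, against 13.5% of all genes, with a median of −0.32 and none as low as −1, among them Mki67 with −0.37 (SE 0.04, edgeR adjusted p = 3.3e-07). On day 0, 6 of 17 processing factors, 4 of 17 chaperones and 5 of 11 other histones were lower by adjusted p alone, against the same 13.5% of all genes. Each was lower by less than a log2 fold change of 1. After induction Slbp had a log2 fold change of 0.10, H2ax of 0.55 and H1f0 of −0.35.

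The members' promoters share short sequences that the choice of members did not use. In the window from 250 bases before to 50 bases after each annotated start, on both strands, TATAAA was present in 36 of 67 members (53.7%), against 13.2% of 21770 protein-coding genes, and CCAAT in 55 (82.1%), against 39.9%. The octamer ATTTGCAT was present in 7 of 18 H2A and 7 of 18 H2B genes and in no H1, H3 or H4 gene, against 1.63% of all protein-coding genes. CCAAT was in 18 of 18 H2A, 17 of 18 H2B and 11 of 12 H3 genes, but in 4 of 13 H4 genes. These windows have not been trimmed for overlap between divergent neighbours, and a match is a description of the letters, not a binding site. The 150 bases before the start are shown for 3 members with high values in OI-AdV-CRE-EGFP relative to OI-AdV-EGFP and for H1f2, which had a log2 fold change of −0.005 there, 5′ to 3′ on the gene's strand in GRCm39, with these motifs in capitals on either strand:
H2ac4 (chr13:23934959-23935108, + strand): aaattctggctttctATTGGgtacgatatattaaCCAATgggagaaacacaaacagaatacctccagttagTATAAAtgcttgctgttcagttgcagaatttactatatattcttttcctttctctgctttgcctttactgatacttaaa
H2bc11 (chr13:22227234-22227383, + strand): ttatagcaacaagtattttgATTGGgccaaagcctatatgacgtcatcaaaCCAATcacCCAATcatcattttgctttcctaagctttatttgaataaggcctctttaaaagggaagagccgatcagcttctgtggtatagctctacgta
H4c3 (chr13:23882438-23882587, − strand): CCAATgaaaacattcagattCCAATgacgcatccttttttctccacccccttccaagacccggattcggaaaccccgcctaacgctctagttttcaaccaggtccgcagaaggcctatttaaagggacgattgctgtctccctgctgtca
H1f2 (chr13:23922641-23922790, + strand): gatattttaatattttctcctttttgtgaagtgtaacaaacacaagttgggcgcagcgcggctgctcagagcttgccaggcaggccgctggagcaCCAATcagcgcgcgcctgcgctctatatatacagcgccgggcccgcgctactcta
All 4 stretches hold CCAAT on one strand or the other, which depends on the genes shown. H4c3 is among the 4 of 13 H4 genes with CCAAT, while H4c8, H4c17 and H4c18 have none in their windows.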

How the data were processed

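All 12 libraries, 3 in each of 4 groups, were used, each placed in its group by its title in the labels. Per the labels and methods, NEBNext Ultra II libraries were trimmed with Cutadapt, and HISAT2 (genome GRCm39) and HTSeq gave the counts. The labels give the molecule as total RNA, while the study speaks of mRNA sequencing. How RNA was selected (by poly(A) or by depletion of ribosomal RNA), which bears on every level of these mostly unpolyadenylated mRNAs, the strand setting, the treatment of reads that fit several copies and the annotation release are not given in the sources used here. Deposited values are estimated counts per gene, not scaled by the authors. In each library 1646 to 1844 of them, and 26 to 41 of the 67 histone genes, are not whole (tolerance 1e-06), whereas HTSeq gives whole counts. The authors also deposited FPKM, scaled by transcript length and by mapped fragments. The table holds no columns of comparisons.

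Expected counts were rounded and tested with the quasi-likelihood F test of edgeR 4.0.16 in R 4.3.3, with TMM scaling and filterByExpr over the 4 groups, in 1 fit of 4 group means over all 12 libraries, with Benjamini-Hochberg adjustment over 13670 genes. Calls needed an adjusted p under 0.05 and a log2 fold change of 1 or more in either direction; the interaction needed the adjusted p only. CPM are TMM-scaled rounded counts, and FPKM served for levels between genes. The 30 genes given by an identifier without a symbol stayed in the fit and in library sizes. Total counts were 15316989 to 18052040. Chi-square per gene between libraries of a group was 2.16 to 5.07, above the value of 1 that sampling noise gives, so each library counts once. The steps were tested on simulated data.

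Members and lists were chosen with earlier results of these data known. The rule for named members took those called in Cre before induction, the 2 members of each class with the highest mean FPKM, the 10 with the largest positive and up to 5 with a negative log2 fold change in Cre after induction, and the 3 largest in each direction in each induction comparison, 24 members in all. From the lists it took Slbp, Npat, H1f0, Mki67 and up to 4 called genes per list and comparison, with Plagl1 as the target of Cre. The lists were S-phase genes, histone transcription and 3′ processing, histone chaperones, histones outside the clusters, and markers of condylar mesenchyme, macrophage, endothelial, skeletal muscle, epithelial and erythroid cells. Alternatives were DESeq2 1.42.0, RLE scaling, no filter, a replicate block, leaving out each library, limma 3.58.1 on log2(FPKM + 1) and log2(FPKM + 0.1), a fit on 2 groups alone, and the adjusted p alone. Sums of near-identical copies, and a sum without H1f2 and H2bc4, were added after the data were seen. Coordinates, stem-loops, shared stretches of 50 bases and promoter windows come from GRCm39 with GENCODE M39, where all 67 members were matched by identifier.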

Additional observations from a re-analysis of the deposited data

Results flagged for a closer look

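For 5 members the change with Cre differed between day 4 and day 0 at an edgeR adjusted p under 0.05, where 10.7% of all genes were higher and 12.1% lower by this measure, and 4 (11.1%) and 1 (2.78%) of 36 members. The values are the log2 fold change of OI-AdV-CRE-EGFP relative to OI-AdV-EGFP minus that of AdV-CRE-EGFP relative to AdV-EGFP, and they contain the comparison that chose the family, so they are a description. H2ac8 had 3.49 (SE 0.78), on 12.6 counts or fewer in any library. H4c18 had 2.22 (SE 0.58) and its near-identical copy H4c17 had 1.18 (SE 0.33). For the sum of both, the log2 ratio of means was 1.31 after induction and −0.11 on day 0. H3c2 had 1.97 (SE 0.55). H1f2 had −0.24 (SE 0.07), with a log2 fold change of −0.005 after induction and 0.24 on day 0. Groups of 3 libraries are too small for the test of single libraries that stand apart.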

How the results depend on the processing

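No listed setting turned the direction of a member past the adjusted p, over 2657 values for 142 fold changes of 32 members, of which 124 were no longer past it and 29 were newly past it. Before induction, the 1 call (H2ac8) was 0 with DESeq2, without the filter, with limma on log2(FPKM + 1) and in the fit on the libraries of the 2 groups, and 8 by adjusted p alone. It was 0 to 1 over the left-out libraries. After induction the 11 calls became 6 with limma on log2(FPKM + 1) and 17 by adjusted p alone, and 8 to 12 over the left-out libraries. The count with induction in EGFP cells, 10, became 5 with limma on log2(FPKM + 1) and 21 by adjusted p alone, and 9 to 11 over the left-out libraries. With induction in Cre cells it was 16, and 16 to 19 over the left-out libraries. The interaction count of 5 became 10 without the filter and 9 with limma on log2(FPKM + 1), and 5 to 9 over the left-out libraries, with 9 without the third AdV-EGFP library and 8 without the second OI-AdV-EGFP library. The cause of these shifts was not tested, except that limma with a pseudocount of 1 shrinks changes of genes near or under 1 FPKM by construction.

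With the replicate block the counts were 1, 11, 10, 16 and 5, as without it. Deviations from group means correlated at −0.0515 to 0.0371 between libraries of the same number (18 pairs, 0 over 0.1) and at −0.0509 to 0.0701 between others (36 pairs). No sign of pairing by number was thus seen, but such correlations cannot exclude that libraries of the same number share a culture or mouse. Class sums moved by less than 1 SD under RLE scaling and total-count scaling. Without the member of the highest count all 24 sums moved, since taking out the largest member lowers a sum by construction. Without H1f2 and H2bc4 all members together stood at 232 CPM in OI-AdV-CRE-EGFP, 169.9 CPM in OI-AdV-EGFP, 115 CPM in AdV-CRE-EGFP and 97.7 CPM in AdV-EGFP. Of 67 members, 28 did not reach a count of 10 in any library. The filter left them out of the main fit, so their differences were not tested there.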
